A study of Mus musculus with 8 samples.

Results

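The replication-dependent histone genes are the multicopy genes that supply histones for newly made DNA, and 66 of the 55401 gene rows of these count files belong to them. They were chosen by symbol alone: H1f1 to H1f6, the numbered H2ac, H2bc, H3c and H4c genes and the remaining Hist1h symbols, without symbols ending in -ps. Of the 66 genes, 6 are named for linker histone H1, 19 for H2A, 17 for H2B, 12 for H3 and 12 for H4, and GENCODE M21 annotates 2 of the H2A genes, H2ac14 and Hist1h2al, as pseudogenes. In that annotation (GRCm38), 56 lie on chromosome 13 and 10 on chromosome 3, and 59 had at least 1 count in some library.

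The counts come from 8 RNA-seq libraries of C57BL/6 mouse spleen in 4 groups of 2. Germinal center (GC) B cells, which divide rapidly within follicles, were FACS-sorted from wild-type (WT) mice and from mice labelled as a B cell knockout (KO) of Jmjd1c. Jmjd1c encodes a Jumonji-domain protein of the H3K9 demethylase family. The other 2 groups are splenic B cells of the same 2 genotypes, enriched with biotinylated pan-B reagent and beads and then activated in vitro. The sources used here do not give the stimulus, its duration, the Cre driver, the deleted exons, the age of the mice or the number of animals behind a library. The p-values therefore measure only the spread between these libraries, which may be technical.

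Replication-dependent histone genes are transcribed mainly in S phase, from compact clusters, and most lack introns. Their mRNAs usually end just after a short stem-loop in place of a poly(A) tail. Stem-loop binding protein (Slbp) and the U7 small nuclear RNA direct that cut, and the RNAs are degraded when DNA synthesis stops. Some of these genes can also give longer, polyadenylated transcripts, for example in cells that have stopped dividing. Replacement histones such as H3.3 and H2A.Z come from separate genes with ordinary polyadenylated mRNAs.

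The stem-loop is the sequence that sets these transcripts apart, so each form found is shown first. The 16-base histone stem-loop motif was searched within 150 bases after the stop codon of M21 transcripts, and 43 of the 66 genes held it. Of the 23 others, 17 have under 50 annotated bases after the stop codon and 2 have no annotated stop codon, so a loop there could lie outside the annotation. Of 21021 other coding genes, 80 (0.381%) held it with at most 1 mismatch, and the 43 histone genes held it with 0. Capitals mark the 6 stem bases on each side, written as DNA, 5′ to 3′, on the transcript strand.
24 genes of classes H1, H2A, H2B and H3, H1f2 among them: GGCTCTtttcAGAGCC
H1f6, H2bc3, H2bc12, H3c3, H3c6 and H3c7: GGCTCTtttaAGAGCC
H3c8: GGCTCTtcttAGAGCC
H2ac20: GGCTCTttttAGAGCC
H4c3, H4c4, H4c6, H4c8, Hist1h4m and Hist1h4n: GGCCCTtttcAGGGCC
H4c9 and H4c14: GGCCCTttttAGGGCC
H4c1: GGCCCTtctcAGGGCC
H4c2 and H4c11: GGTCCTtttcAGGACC
The H4 genes thus carried other stem letters than the other 4 classes. H4c9 and H4c14, whose levels differed in opposite directions between the cell types, shared a stem-loop identical in all 16 bases. That of H4c9 lies at chr13:22040966-22040981 and that of H4c14 at chr3:96262939-96262954, both on the minus strand of GRCm38. The annotated transcripts went on past the loop by 330 bases in H4c9, 1257 in H4c14 and 840 in H1f2 (loop at chr13:23739512-23739527, plus strand).

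H2bc21 and H2bc4 had no stem-loop in the 150 bases searched after the stop codon of their annotated transcripts. In these transcripts 2192 and 742 bases follow the stop codon, most of which were not searched. H2bc21 is 1 of a pair with H2ac20: the genes are read in opposite directions from starts 239 bases apart on chromosome 3. The bases between those starts (GRCm38, RefSeq promoter table) are shown because counts of the pair went in opposite directions between the cell types. They are written on the minus strand, so that H2bc21 begins before the first base and H2ac20 after the last. Capitals mark matches to the CCAAT box (1 on this strand and 2 on the other), the TATA box (1, on this strand) and the octamer (1, on the other strand), whose letters are given below.
chr3:96220881-96221118: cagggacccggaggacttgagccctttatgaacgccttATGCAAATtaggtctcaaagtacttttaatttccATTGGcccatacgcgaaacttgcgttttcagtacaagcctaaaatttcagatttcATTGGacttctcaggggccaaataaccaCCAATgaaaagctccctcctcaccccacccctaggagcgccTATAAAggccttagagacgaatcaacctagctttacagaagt
Promoters of 59 histone genes (250 bases before to 50 after the start) were searched on both strands for the same 3 motifs. H2bc21, H2bc4 and H4c14 are not among these 59. CCAAT was in 51 of 59 (86.4%), against 41.0% of 26966 other genes, and in each H1, H2A, H2B and H3 promoter but in 3 of 11 H4 promoters. TATAAA was in 34 of 59 (57.6%, against 15.6% of other genes). The octamer ATTTGCAT was in 13 of 59 (22.0%, against 1.92%), all 13 of them H2A or H2B genes. These are matches of letters, not measured binding sites, and no motif overlapped another in the stretch shown. Genes read in opposite directions from nearby starts share promoter bases, so 1 site can count for 2 genes. The octamer of H2ac8 and H2bc8 did so, and the 59 promoters are not independent.

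Histone transcripts made up a small part of each library. Libraries held 8777425 to 11414559 counts on genes, of which 525 to 1469 fell on the 66 histone genes. This was 0.0128% and 0.0134% of gene counts in the KO GC libraries, 0.0125% and 0.0129% in WT GC, 0.00562% and 0.00622% in KO activated and 0.00630% and 0.00627% in WT activated. Levels below are CPM, counts relative to library size, scaled with TMM over all 8 libraries, and most single histone genes rest on few counts. For scale, the 11 replication-independent histone genes summed to between 1934 and 2952 CPM per library, against 53.8 to 144.6 CPM for the 66 genes. Per kb of exon in WT GC cells, the H2A.Z gene H2az1 stood at 279 and the H3.3 gene H3f3b at 221 CPM per kb, against 34.5 for H4c9, the highest of the 66. A separate list of RNAs known to lack a poly(A) tail, mostly small nuclear and nucleolar RNAs, was low as well: its 20 members in the files summed to 6.29 to 11.4 CPM per library, with 7 at 0 in all 8. The sources used here do not say how RNA was selected for the libraries.

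Near-identical copies limit what single genes can show. The share of 50-base exon windows found in no other M21 transcript had a median of 45.9% over the 59 genes with counts and 2.7% over the 7 genes at 0. Those 7 were H2ac1, H2ac18, H2bc18, H3c14, Hist1h2al, Hist1h2bq and Hist1h2br. Of the 7, 4 had under 5% of windows unique, but H2ac1 had 76.2%. A further 4 (H1f6, H2bc1, Hist1h2ao and Hist1h2ap) had 1 or 2 counts over all 8 libraries. Their unique shares were 100%, 61.8%, 6.5% and 6.9%, so low counts did not always go with few unique windows. Windows were all unique for H2bc21 and unique in 99.0% for H4c14, 91.5% for H1f2 and 71.1% for H4c9. Reads that the files list as not uniquely aligned made up 9.21% and 9.23% of entries in KO GC, 6.88% and 6.99% in WT GC and 4.37% to 4.75% in activated libraries, and their part in the histone differences was not tested. For 18 of the 19 H2A genes over 10% of the exon overlaps a gene on the opposite strand, and since the strand setting is not given, their counts are uncertain.

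The first comparison was between the cell types. GC B cells held more histone transcript than activated B cells in both genotypes. The 66 genes summed to 131.6 ± 3.39 CPM in WT GC cells and 59.5 ± 0.636 CPM in WT activated cells (mean ± SD, n = 2), a ratio of 2.21. In KO cells the sums were 140.9 ± 5.16 and 56.5 ± 3.90 CPM, a ratio of 2.49. The lowest GC library stood at 129.2 CPM and the highest activated library at 60.0 CPM, so the cell types did not overlap. In bulk RNA, a smaller fraction of cells in S phase and less histone RNA per cell cannot be told apart.

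**Figure D1:**
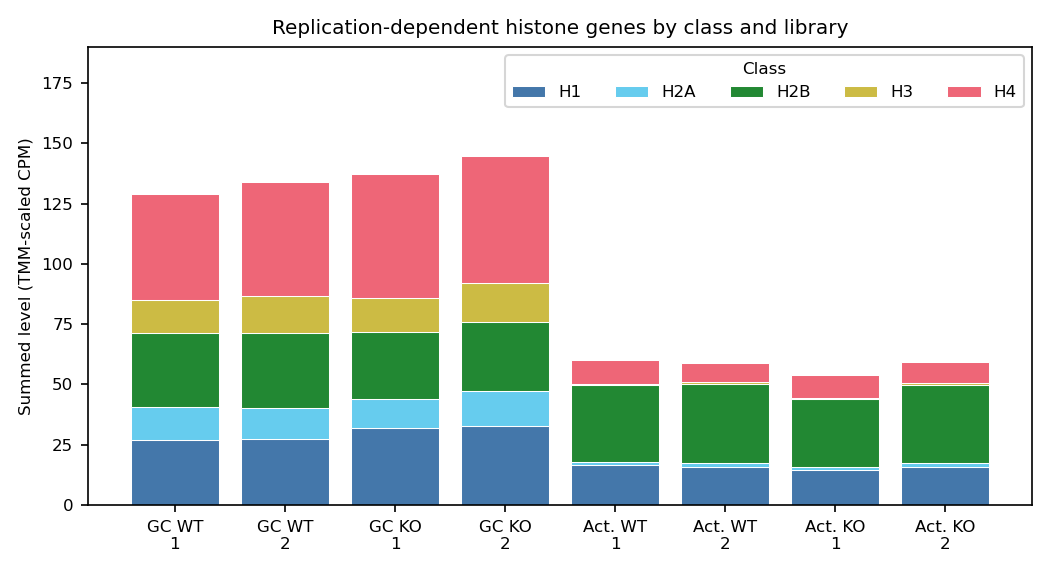
Summed level of replication-dependent histone genes in each library, in TMM-scaled CPM, stacked by histone class. The 4 GC bars reach 129.2 to 144.6 CPM and the 4 activated bars (Act.) 53.8 to 60.0 CPM, where H3 and H2A are barely visible and H2B keeps its height.

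The classes differed widely in this ratio. H3 genes summed to 14.5 CPM in WT GC and 0.555 CPM in WT activated cells, a ratio of 26.1. That ratio is imprecise, since all H3 genes together had 5 and 6 counts in WT activated and 7 and 7 in KO activated libraries. In WT cells the ratio was 9.48 for H2A, 5.10 for H4 and 1.67 for H1. H2B was the exception, at 31.0 ± 0.318 CPM in WT GC and 32.4 ± 0.785 CPM in WT activated cells (ratio 0.957). In KO cells the 5 ratios were 21.1 for H3, 10.1 for H2A, 5.85 for H4, 2.14 for H1 and 0.926 for H2B. H2B therefore made up 52.4% to 55.7% of histone counts in the activated libraries and 19.8% to 23.8% in the GC libraries.

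A few genes carried these class differences. In each activated library 5 genes, H2bc21, H1f2, H4c14, H2bc4 and H2bc6, took 85.5% to 89.0% of all histone counts, and in each GC library 22.7% to 25.7%. This set was chosen after its values were seen. The other 61 genes stood at 99.8 CPM in WT GC and 7.71 CPM in WT activated cells, a ratio of 12.9, and at 107 and 6.25 CPM in KO cells, a ratio of 17.1. Without H2bc21, H2bc4 and H2bc6, the 14 remaining H2B genes had a ratio of 9.03 in WT and 12.9 in KO cells. Without H1f2, the 5 other H1 genes had a ratio of 17.8 in WT cells, and without H4c14, the 11 other H4 genes had one of 13.1. Of those 14 H2B genes, 10 were more than 2-fold higher in WT GC cells and 4 had 0 counts in the WT libraries. The genes left out here are those with the lowest ratios, so a higher ratio of the rest follows from the choice.

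**Figure D2:**
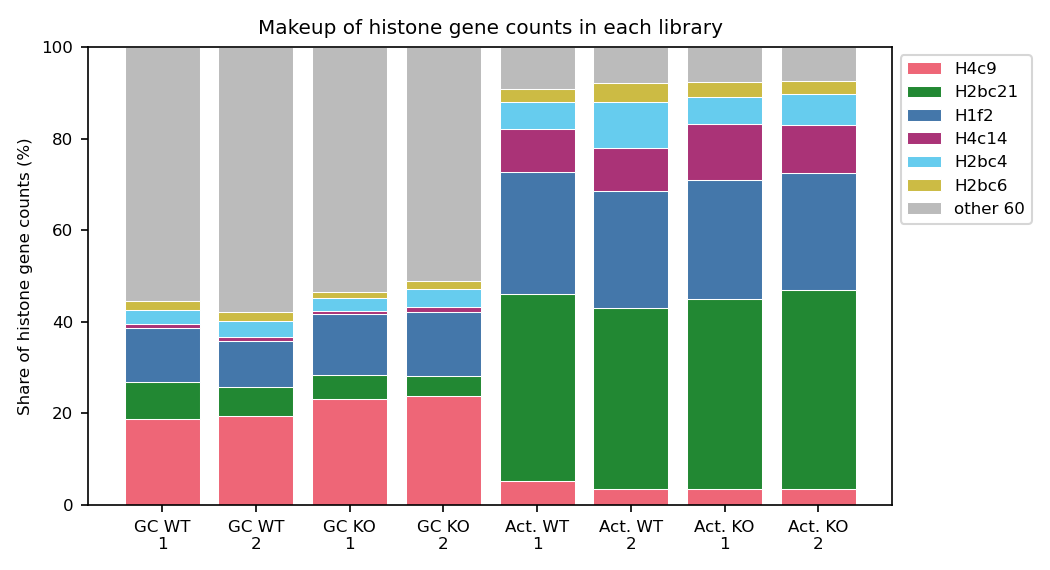
Share of all replication-dependent histone counts, in percent, taken in each library by H4c9, by H2bc21, H1f2, H4c14, H2bc4 and H2bc6, and by the other 60 genes (grey). Activated libraries (Act.) are mostly H2bc21 and H1f2, and GC libraries mostly H4c9 and the other 60 genes.

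H4c9 (older symbol Hist1h4i, ENSMUSG00000060639.5, chr13:22040636-22041362, minus strand), an H4 gene with 1 exon, had the highest level per length of the 66 genes over all libraries, at 21.6 CPM per kb. Its level was 24.2 and 25.9 CPM in the WT GC libraries and 31.7 and 34.4 in KO GC. In activated libraries it was 3.20 and 2.08 CPM for WT and 1.84 and 2.12 for KO. All GC libraries were thus far above all activated ones. The log2 fold change, GC over activated, was 3.24 in WT cells (SE 0.18, adjusted p = 6.62e-42, edgeR quasi-likelihood test) and 4.06 in KO cells (SE 0.18, adjusted p = 2.82e-18, edgeR).

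H2bc21 (Hist2h2be, ENSMUSG00000068854.7, chr3:96221119-96223738, plus strand), an H2B gene, showed the opposite pattern. Its level was 10.4 and 8.66 CPM in WT GC and 7.19 and 6.43 in KO GC, against 24.5 and 23.3 in WT activated and 22.3 and 25.7 in KO activated libraries. Every activated library was at least as high as 22.3 CPM and no GC library was above 10.4. The log2 fold change, GC over activated, was -1.34 in WT cells (SE 0.14, adjusted p = 2.13e-18, edgeR) and -1.81 in KO cells (SE 0.15, adjusted p = 1.01e-11, edgeR).

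H4c14 (Hist2h4, ENSMUSG00000091405.2, chr3:96261682-96263311, minus strand) encodes H4 like H4c9 but followed H2bc21. It had 11 and 12 counts in WT GC and 6 and 11 in KO GC, against 55 and 55 (WT) and 65 and 61 (KO) in activated libraries. This was 1.15 and 1.09 CPM, then 0.731 and 1.31, 5.68 and 5.45, and 6.66 and 6.16 CPM in the same order, with no overlap between the cell types. Its log2 fold change was -2.31 in WT (SE 0.32, adjusted p = 2.71e-11, edgeR) and -2.62 in KO cells (SE 0.33, adjusted p = 3.89e-08, edgeR). Per kb in WT activated cells, H4c14 at 3.41 and H4c9 at 3.63 CPM per kb were at a like level, while in WT GC cells they stood at 0.690 and 34.5.

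H1f2 (Hist1h1c, ENSMUSG00000036181.2, chr13:23738808-23740367, plus strand), an H1 gene, had nearly the same level in the cell types. It was 15.3 and 13.5 CPM in WT GC, 18.5 and 20.2 in KO GC, 15.9 and 15.2 in WT activated and 13.9 and 15.1 in KO activated libraries. In WT cells the log2 fold change was -0.12 (SE 0.14, adjusted p = 0.400, edgeR). In KO cells it rose by 0.42 (SE 0.13, adjusted p = 0.00476, edgeR), a call that DESeq2 did not make (adjusted p = 0.0723). H1f2 held the first place per length in activated cells, at 9.96 CPM per kb in WT, next to H2bc21 at 9.12.

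H2bc4 and H2bc6, also H2B genes, lay between 1.62 and 5.95 CPM in all 8 libraries and overlapped between the cell types. Their log2 fold changes, GC over activated, were -0.17 and 0.24 in WT cells and 0.48 and 0.25 in KO cells, and none of the 4 passed (adjusted p from 0.107 to 0.547, edgeR). H2bc6 shares 11.2% of its annotated exons with genes on its own strand, H1f4 among them.

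**Figure D3:**
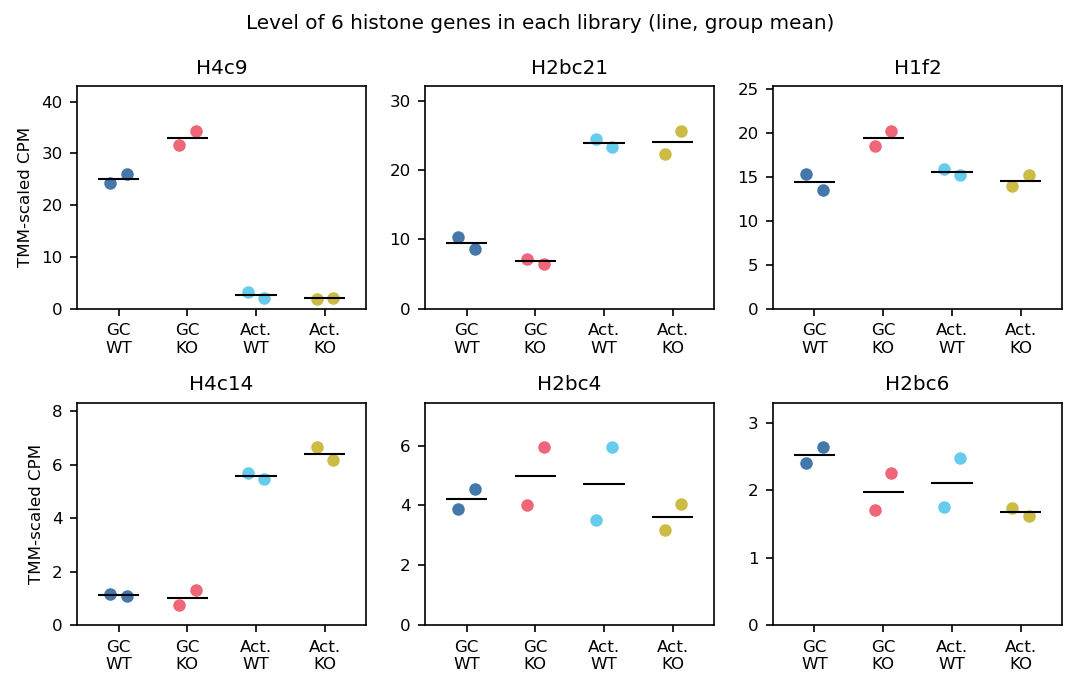
Level in TMM-scaled CPM (vertical axes from 0, scaled per gene) of H4c9, H2bc21, H1f2, H4c14, H2bc4 and H2bc6 in each library (points) with group means (lines). H4c9 is high in GC cells, H2bc21 and H4c14 are high in activated cells (Act.), and H1f2, H2bc4 and H2bc6 lie at similar levels in both.

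The remaining genes were mostly near 0 in activated cells. H3c3, the highest H3 gene per length over all 8 libraries, had 28 and 59 counts in WT GC and 34 and 26 in KO GC, against 0 and 0 in WT activated and 0 and 2 in KO activated libraries. Counting 0 as at most 3 counts over the group, it was at least 28.0-fold higher in WT GC cells. The H1 gene H1f5 had 31 and 40 counts in WT GC and 38 and 29 in KO GC against 1 count in the 4 activated libraries together. Its ratio in WT cells was 68.5 with a 95% counting interval of 11.9 to 2743, and it was at least 26.5-fold higher in KO GC cells. The H2B gene H2bc11 had 20 and 33 counts in WT GC and 0 in WT activated cells, at least 17.0-fold higher. The H4 gene H4c2 had 49 counts in WT GC and 1 in WT activated cells (ratio 47.3, interval 8.10 to 1905). Its counts are uncertain too, since 56.2% of its exon overlaps a gene on the opposite strand and 24.1% of its windows are unique. H2ac8, the highest H2A gene per length over all 8 libraries, and its divergent partner H2bc8 kept more counts in activated cells, with ratios of 2.97 (1.56 to 6.05) and 2.79 (1.63 to 4.98) in WT. These intervals cover counting error only.

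Over all members, 53 of 66 had more than 3 counts in at least 1 of the WT groups. Of these, 46 were more than 2-fold higher in WT GC cells, 18 of the 53 values being lower bounds, and 2 (H2bc21 and H4c14) were more than 2-fold lower. Another 4 lay between (H1f2, H2bc4, H2bc6 and H2ac19), H2ac10 was at least 1.93-fold higher, and the median ratio, with bounds in place, was 9.65. In KO cells 50 genes could be placed, of which 45 were higher, 2 (the same genes) lower and 3 between, with a median of 10.7. Most genes placed had more than 3 counts in GC cells alone, so these numbers of genes describe them and lend no support. The same 2-fold counts over all genes were not made. Libraries did not overlap, with GC higher, for 47 of the 57 histone genes with a count in WT cells, against 29.8% of all genes with a count, and 2 were lower, against 35.2%. In KO cells 49 of 58 were higher (background 29.8%) and 2 lower (33.5%).

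edgeR tested the genes that passed its filter on low counts, 33 histone genes in WT and 29 in KO cells. In WT cells 28 rose in GC over activated cells (40.3% of all 14426 tested genes did), 2 fell (41.8%) and 3 did not pass. In KO cells 25 rose (39.2% of 14307), 2 fell (39.5%) and 2 did not pass. Most of these genes passed the filter through the GC libraries alone, so these counts describe them and lend no support. Without the filter, 43 and 39 rose.

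**Figure D4:**
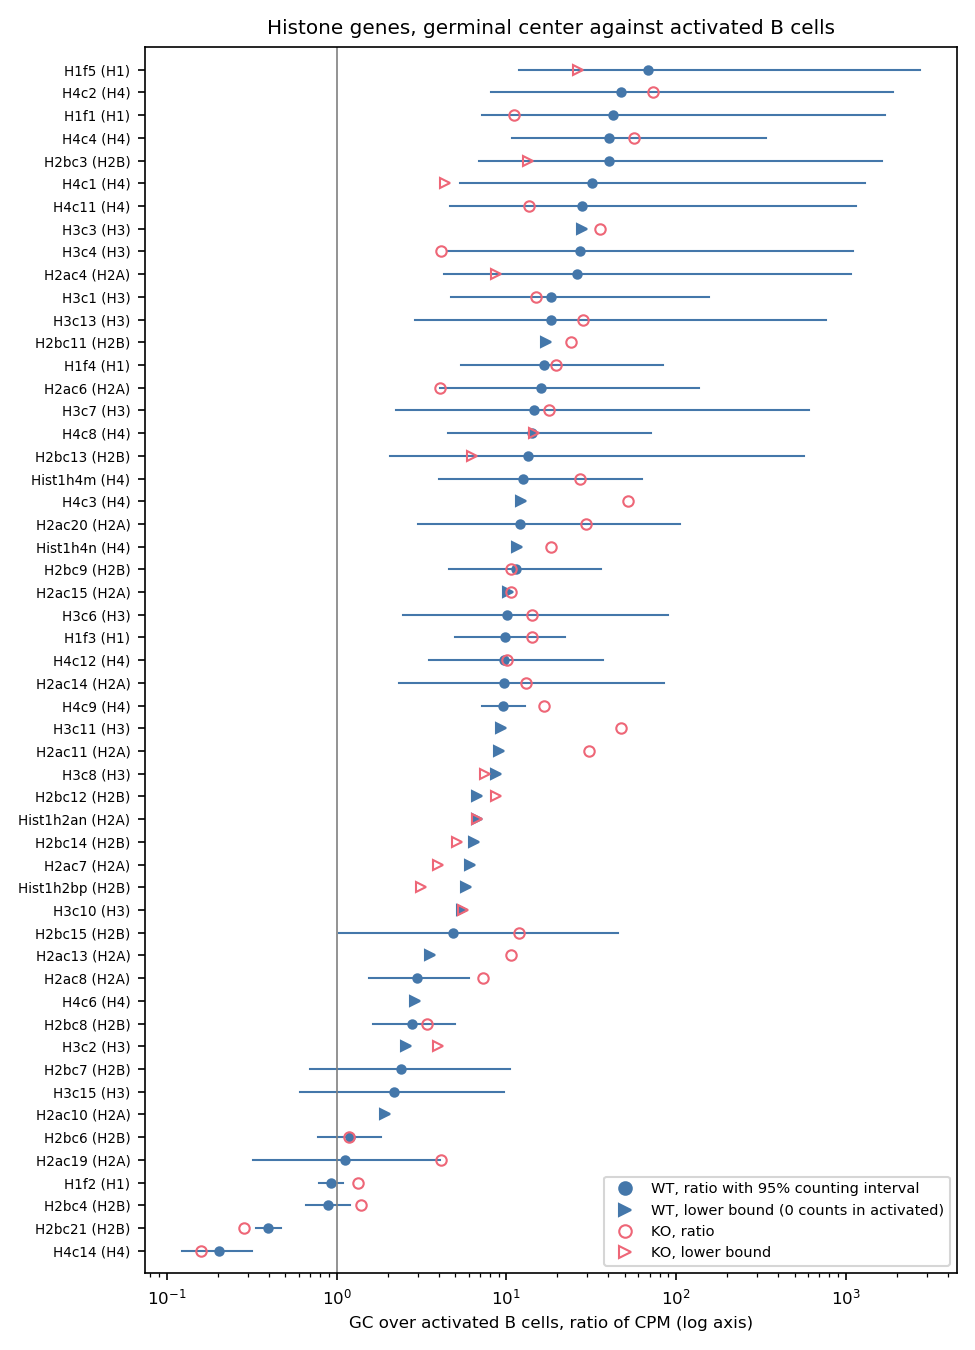
Ratio of level in GC over activated B cells (log axis) for the 53 histone genes with more than 3 counts in a WT group. Filled points are WT ratios with 95% counting intervals, filled triangles WT lower bounds where activated cells had 0 counts, and open symbols the same in KO cells. H2bc21 and H4c14 lie to the left of 1 and 46 WT values lie above 2.

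The summed ratio differed with how a transcript is annotated to end. The 22 genes whose annotation stops within 100 bases after the stem-loop had a ratio, GC over activated, of 23.6 in WT and 33.2 in KO cells. The 21 genes with a stem-loop and a longer annotation had 2.50 and 3.0. The 23 in which the search found no stem-loop, most of them annotated too short to show one, had 1.04 and 1.01. These sums rest on the leading genes. Without H1f2, H4c14 and H2bc6 the longer-annotated genes had 9.36 and 12.8. Without H2bc21 and H2bc4 the genes with no loop found had 25.2 and 23.8. An AATAAA or ATTAAA, the letters of the usual poly(A) signals, lay in the last 50 annotated bases of 14 genes, including H1f2, H2bc21, H4c14, H2bc6 and H4c9 but not H2bc4. Those 14 had a summed ratio of 1.20 in WT cells and the other 52 had 7.97. Without H1f2, H2bc21, H4c14 and H2bc6, the 10 remaining genes with such a signal had 9.33 in WT and 16.6 in KO cells, and without H4c9 alone the 13 others had 0.743 and 0.776. The genes set aside were chosen after their values were seen, so the values without them give no test of the annotated end. The counts per gene do not show where a read lies, so the ends of the transcripts themselves were not measured.

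By chromosome, the 56 genes on chromosome 13 had a ratio of 4.02 in WT and 5.02 in KO cells, and the 10 on chromosome 3 had 0.453 and 0.376. Without H1f2, H2bc4 and H2bc6 the other 53 genes on chromosome 13 had 13.8 and 17.3, and without H2bc21 and H4c14 the 8 other genes on chromosome 3 had 4.27 and 12.3. Those 8 stood at levels of 3.01 ± 0.643 and 0.704 ± 0.266 CPM in WT GC and activated cells. In KO cells the levels were 3.73 ± 0.450 and 0.304 ± 0.141 CPM, so both ratios of the 8 rest on few counts. The genes left out were chosen after their low ratios were seen, so higher ratios of the rest follow from the choice.

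H2A and H2B genes often lie head to head, and 13 such pairs had starts within 500 bases. The pair H2ac20 and H2bc21, whose shared upstream bases are printed above, went apart. H2ac20 had 13 and 12 counts in WT GC and 9 and 16 in KO GC, against 1 and 1 in WT activated and 1 and 0 in KO activated libraries. H2bc21 had 99 and 95, 59 and 54, 237 and 235, and 218 and 255 counts in the same order. The ratio, GC over activated in WT cells, was 12.1 for H2ac20 (95% counting interval 3.01 to 105) and 0.397 for H2bc21 (0.334 to 0.470). H2ac6 and H2bc4, with starts 251 bases apart, had 33 and 87 counts in WT GC and 2 and 94 in WT activated cells. Other pairs were high in GC cells on both sides, such as H2ac11 and H2bc11, with 28 and 53 counts in WT GC and 0 and 0 in WT activated cells. In exon overlap with the opposite strand, H2ac20 has 27.1% and H2bc21 0.

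The second comparison asked how histone genes differ between KO and WT GC B cells. The total barely differed, and a few genes did. The sum was 137.3 and 144.6 CPM in KO and 129.2 and 134.0 in WT, a ratio of 1.07 with no overlap, while as a share of unscaled gene counts the genotypes overlapped. Of 36 genes tested, 2 rose (H4c9 and H1f2; 25.1% of all 13350 tested genes rose), 2 fell (H2bc21 and H4c1; 25.1% fell) and 32 did not pass. Of the 36, 8 had an unadjusted p under 0.05. The median log2 fold change was 0.01 over the 36 and 0.00 over all genes tested, with 19 values above and 17 below 0. The share of histone genes that passed was below that of all genes in both directions, at counts where small differences are hard to detect.

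H4c9 rose in KO GC cells, from 24.2 and 25.9 to 31.7 and 34.4 CPM (log2 fold change 0.40, SE 0.10, adjusted p = 0.000278, edgeR). It passed in each of the 10 alternatives run, with adjusted p up to 0.0301. H1f2 rose from 15.3 and 13.5 to 18.5 and 20.2 CPM (0.44, SE 0.13, adjusted p = 0.00305, edgeR). H1f2 did not pass with DESeq2 (adjusted p = 0.0863), without KO replicate 2 (0.0562) or without WT replicate 2 (0.0792). H2bc21 fell from 10.4 and 8.66 to 7.19 and 6.43 CPM (-0.47, SE 0.19, adjusted p = 0.0272, edgeR). H2bc21 did not pass with DESeq2 (0.225), without KO replicate 2 (0.166) or without WT replicate 1 (0.234). H4c1, another H4 gene, fell from 18 and 15 counts to 7 and 4 (-1.26, SE 0.51, adjusted p = 0.0301, edgeR), and this call was lost with DESeq2 (0.236), in 1 fit of all 8 libraries (0.0544) and without any 1 of the 4 libraries. In all 4 genes the KO and WT libraries did not overlap.

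**Figure D5:**
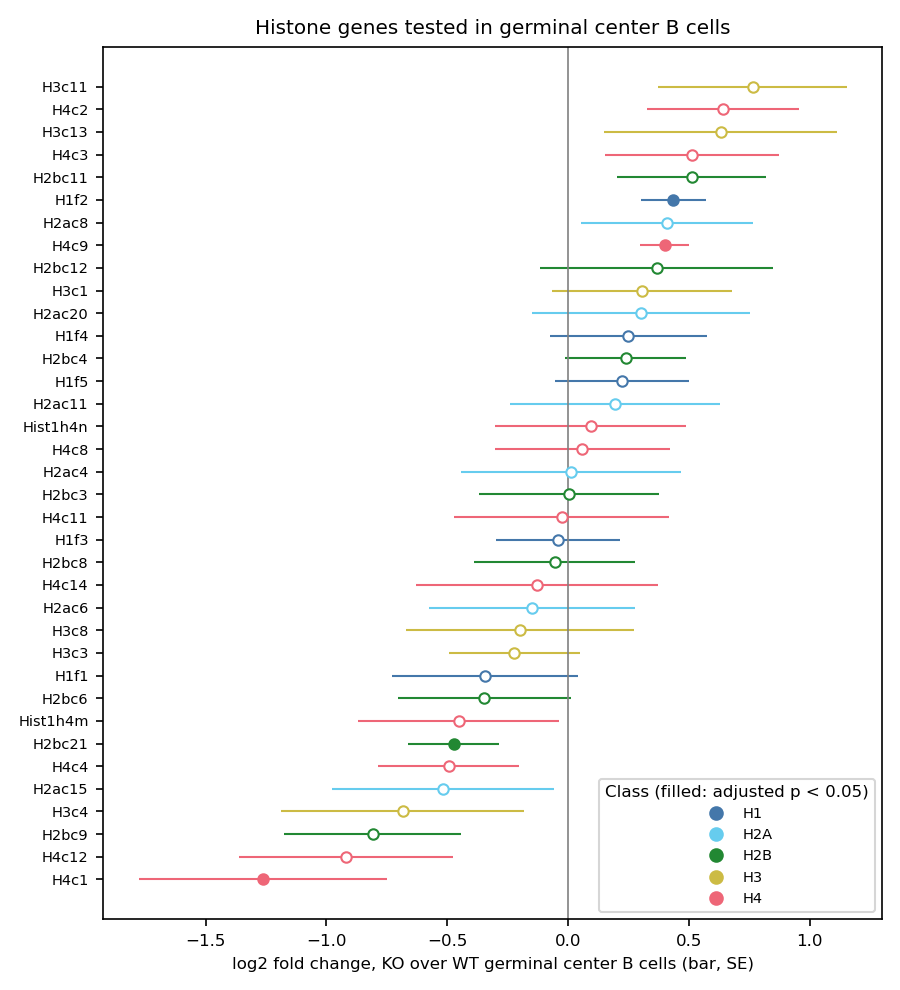
Log2 fold change of KO over WT GC B cells for the 36 histone genes tested, with SE as bars and colour by class. Filled points passed at an adjusted p under 0.05 (edgeR): H4c9 and H1f2 to the right of 0, H2bc21 and H4c1 to the left.

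The class sums moved with these genes. H4 stood at 51.5 and 52.6 CPM in KO and 44.0 and 47.4 in WT GC cells, and without H4c9 at 19.9 and 18.2 against 19.7 and 21.5. H1 stood at 31.9 and 33.0 against 27.0 and 27.2, and without H1f2 at 13.4 and 12.7 against 11.7 and 13.7. H2B stood at 27.8 and 28.6 against 30.7 and 31.2, and without H2bc21 at 20.6 and 22.1 against 20.4 and 22.5. In each of the 3 classes the genotypes did not overlap with the gene and overlapped without it. The genes left out had passed in these same libraries, so a weaker separation of the rest follows from the choice. Of all genes with a count, 28% did not overlap with KO higher and 25.6% with KO lower. H2A (12.2 and 14.4 against 13.9 and 12.9 CPM) and H3 (13.9 and 16.1 against 13.6 and 15.3) overlapped.

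Among the genes that did not pass, H3c11 had the highest value (0.76, SE 0.39, adjusted p = 0.0913) and H4c12 the lowest (-0.92, SE 0.44, adjusted p = 0.0731, edgeR). Few of their 50-base windows are unique, 12.4% and 28.5%. Over all 57 histone genes with a count in GC cells, libraries did not overlap for 8 with KO higher (28% of all genes with a count) and 11 with KO lower (25.6%).

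Markers of other cells and mitochondrial reads moved with this comparison. Summed GC markers (6 genes, including Bcl6) were 1295 and 1286 CPM in KO and 2164 and 2165 in WT GC cells. Activation markers (6) were 827 and 861 against 592 and 611 CPM. Summed erythroid markers (6 genes) were 58.3 and 71.3 against 7.34 and 9.39 CPM, and myeloid markers (6) 114 and 130 against 44.5 and 44.1. T cell markers (6) were 7.92 and 9.28 against 0.944 and 1.37 CPM, with Cd3e at 0 in WT, and neutrophil markers (5) 0.974 and 0.476 against 0 and 0. Mitochondrially encoded genes took 9.20% and 9.52% of gene counts in KO and 5.51% and 5.27% in WT. Their part in the histone values was not tested.

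In activated B cells no histone gene passed in the KO comparison. Levels allowed 6 genes to be tested, and 0 rose (4.85% of all 14110 tested genes did) and 0 fell (1.42%), with 0 at an unadjusted p under 0.05 by edgeR and 0 calls by DESeq2. The log2 fold changes were -0.40 for H4c9 (SE 0.34), -0.39 for H2bc4 (SE 0.27), -0.33 for H2bc6 (SE 0.36), -0.09 for H1f2 (SE 0.13), 0.01 for H2bc21 (SE 0.11) and 0.21 for H4c14 (SE 0.20). The median of the 6 was -0.21, against 0.00 over all genes. Of 47 histone genes with a count, libraries did not overlap for 4 with KO higher (background 17%) and 8 with KO lower (16.8%). Neutrophil markers were 773 and 659 CPM in KO and 205 and 163 in WT activated libraries, and erythroid markers 1043 and 855 against 598 and 590. Myeloid markers were 1472 and 1355 against 901 and 851 CPM, and T cell markers 19.3 and 16.6 against 11.4 and 12.8. Their part in the histone values, here and between the cell types, was not tested.

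Whether the KO effect differs between the cell types was tested in 1 fit of all 8 libraries. Of 36 histone genes, 1 passed with a higher effect in GC cells (17.5% of all 14992 tested genes did) and 0 with a lower one (13.8%), and 3 had an unadjusted p under 0.05. The gene was H1f2, with a difference of 0.53 (SE 0.19, adjusted p = 0.0226, edgeR), which DESeq2 did not call (0.171). It also did not pass when KO GC replicate 2, WT GC replicate 2, KO activated replicate 1 or WT activated replicate 1 was left out. H4c9 differed by 0.80 (SE 0.33, adjusted p = 0.0527) and H2bc21 by -0.49 (SE 0.21, adjusted p = 0.0723, edgeR), both short of the threshold.

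Replication-independent histone genes are transcribed outside S phase too and mostly give polyadenylated mRNAs, though H2ax is known to give stem-loop-ended mRNA as well. In KO GC cells 8 of the 10 tested fell (25.1% of all genes did), 1 rose (H2aj, 0.19; 25.1%) and 1 did not pass (Macroh2a1), with a median log2 fold change of -0.60. H1f10 fell by 1.29, from 123 ± 1.74 to 50.2 ± 0.550 CPM, and H1f0, a linker histone of resting cells, by 1.0. The H2A.Z genes H2az1 and H2az2 fell by 0.65 and 0.77, and H2ax, whose product marks DNA breaks, by 0.73. The H3.3 genes H3f3a and H3f3b fell by 0.55 and 0.11, and the centromeric Cenpa by 0.17 (adjusted p of these 8 at most 0.00247, edgeR). Macroh2a2, the 11th gene, was too low to test. In activated cells 2 of 9 rose (4.85% of all genes did), H2az1 by 0.26 (adjusted p = 0.0289) and H1f0 by 0.55 (adjusted p = 0.0483, edgeR), and 0 fell (1.42%). Between WT cell types 9 of 10 rose in GC cells (40.3% of all genes did) and H3f3a fell by 0.60.

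Among genes that make, process and degrade histone mRNA, more fell than rose in KO GC cells. Of 30 genes on this list, 5 rose (25.1% of all genes did), 16 fell (25.1%) and 9 did not pass, with a median log2 fold change of -0.18. Slbp, which binds the stem-loop, fell from 231.6 ± 0.224 to 138 ± 4.41 CPM (-0.75, SE 0.04, adjusted p = 1.67e-62, edgeR). Npat, the cyclin E/Cdk2 target that activates histone gene transcription, fell by 0.33, Eri1, an exonuclease that acts on the stem-loop, by 0.46, and Lsm11, a subunit of the U7 particle, by 0.46. Zfp473, another factor of this processing step, had 0.16 (SE 0.16, adjusted p = 0.426, edgeR). In activated cells Slbp had 0.09 (adjusted p = 0.571, edgeR), and the difference between the cell types was -0.84 (SE 0.09, adjusted p = 5.66e-14, edgeR). Between WT cell types Slbp rose by 2.12 in GC cells, and 22 of 30 genes of the list rose (40.3% of all genes did) and 4 fell (41.8%).

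S phase genes and histone chaperones were counted in the same way. Of 50 S phase genes tested in KO GC cells, 36 were called lower (25.1% of all genes were) and 4 higher (25.1%), 10 did not pass, and the median was -0.39. Among them the clamp loader gene Rfc1 fell by 0.75, the replicative helicase gene Mcm6 by 0.63 and the polymerase alpha gene Pola1 by 1.08. Of 29 chaperones 16 fell, 5 rose and 8 did not pass, against the same shares of all genes (median -0.16), including Asf1b (-0.88), Anp32e (-0.74), Rbbp4 (-0.59) and Nap1l1 (-0.55). In activated cells 0 of 50 S phase genes passed, and 1 of 29 chaperones fell (1.42% of all genes did). Between WT cell types, 49 of 50 S phase genes rose in GC cells (40.3% of all genes did), with a median of 2.67, and 25 of 29 chaperones, with a median of 1.21. In summed level the S phase genes were at 10190 and 10270 CPM in WT GC, 7885 and 7870 in KO GC and 1749 to 1814 in activated libraries.

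As checks of the labels, Jmjd1c had 1341 and 1330 counts in KO and 1850 and 1950 in WT GC libraries, and in activated libraries 1329 and 1520 for KO and 2656 and 2852 for WT. It fell by 0.20 and 0.94 on the log2 scale, and reads from undeleted exons are included. The fall in GC libraries was thus small, and how complete the deletion was in those cells was not tested. GC markers were 142 to 149 CPM in activated libraries, below all GC libraries. The 6 markers of activation summed to 533 to 590 CPM in activated and 592 to 861 in GC libraries, so their sum did not set the activated cells apart. Singly they differed: Irf4 was at 211.5 to 225.3 CPM in activated and 47.15 to 125.9 in GC libraries. Cd69, Cd86, Cd83 and Batf were higher in all GC libraries, and Myc overlapped.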

How the data were processed

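RNA-seq was analysed from 8 mouse libraries, 2 per group. The authors deposited whole-number read counts per gene, and the files' last 5 entries, which carry names used by htseq-count, name no gene and were left out (reads without a feature were 47.2% to 53.9% of entries). The submitters' processing notes name Trimmomatic, DESeq2 and the mm10 build. The sources used here do not give the aligner, strand setting or RNA selection. Depth was 8777425 to 11414559 gene counts per library, and intervals and floors (3 counts over a group) cover counting error only.

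Counts were tested with edgeR 4.0.16 in R 4.3.3: TMM, filterByExpr (minimum count 10) and its quasi-likelihood test, with Benjamini-Hochberg adjusted p over all genes tested, passing under 0.05. Each comparison used its own 4 libraries, and the difference of KO effects all 8. The procedure was run on simulated counts with changes placed only in genes of higher counts than most histone genes here, so it does not cover those. Coordinates, exon lengths and stem-loops came from GENCODE M21 (GRCm38), in which all 66 genes were found by Ensembl ID, and promoters from RefSeq. Groups came from sample titles. Alternatives were DESeq2 1.42.0 and its size factors, no filter, a replicate block, other scalings, 1 joint fit and each library left out. Named genes were up to 10 per comparison by lowest p, the 12 highest per kb and the highest of each class, of which a part is described. H2bc6, H2ac6, H2ac10, H2ac11, H2ac19 and H2ac20 are named outside that rule, after their values were seen. Members and lists were chosen with earlier results of these data known. Some genes that the rule takes are left out of the text.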

Additional observations from a re-analysis of the deposited data

Results flagged for a closer look

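The KO effect on H1f2 differed between the cell types by edgeR, a call that DESeq2 did not make (adjusted p = 0.171). Its log2 fold change, KO over WT, was 0.44 in GC B cells and -0.09 in activated B cells, and the test of the difference in 1 fit of all 8 libraries gave 0.53 (SE 0.19, adjusted p = 0.0226, edgeR). Over 13 alternatives the difference lay between 0.46 and 0.64, with adjusted p from 0.0149 to 0.171. It is the only histone gene of 36 tested for which this difference passed. Of all 14992 tested genes, 17.5% passed with a higher effect in GC cells and 13.8% with a lower one. Groups of 2 libraries are too small for a check of single outlying libraries.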

How the results depend on the processing

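For the histone genes given alternatives one by one (18 named genes and H2bc6), called directions held in each alternative run, while several calls did not. Of the KO effects in GC cells, H4c9 alone passed throughout. The number of genes that rose there (2) was 1 with DESeq2 and 1 to 2 with each library left out. The number that fell (2) was 0 with DESeq2, 1 in 1 fit of all 8 libraries and 1 to 2 with each library left out. Without the filter on low counts, genes higher in GC than activated cells were 43 in place of 28 in WT and 39 in place of 25 in KO, since more genes were tested, and 24 to 36 and 19 to 32 with each library left out. For the difference of KO effects the count higher (1) was 0 with DESeq2 and 0 to 2 with each library left out, and the count lower (0) was 0 to 1. H4c9 passed there without KO GC replicate 1 (adjusted p = 0.0480), WT GC replicate 2 (0.0488) or WT activated replicate 2 (0.0176), and H2bc21 without KO activated replicate 1 (0.0370). In WT cells H2ac8 did not pass with DESeq2 (0.0516), nor H2bc8 without WT GC replicate 1 (0.165).

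Values that changed sign with 1 library left out were all short of the threshold. For KO against WT in GC cells, H2bc4 ran from -0.073 to 0.50 and H4c14 from -0.61 to 0.23. In activated cells H2bc21 ran from -0.095 to 0.11 and H2bc4 from -0.72 to 0.041. For WT GC against activated cells H2bc4 ran from -0.51 to 0.25. For the difference of KO effects H2bc6 ran from -0.26 to 0.21 and H4c14 from -0.81 to 0.015. Without mitochondrial genes in the total, the histone share was 0.0134% in WT GC, 0.0145% in KO GC and 0.00643% in WT activated cells.

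Libraries of equal replicate number hardly deviated together (correlation of deviations 0.02, 0.04, -0.04 and -0.01 over 10835 genes). With 2 libraries per group, this cannot show whether samples shared an animal, litter or day. With a replicate block the counts were the same: 2 and 2 genes higher and lower in KO GC cells, 0 and 0 in activated cells, 28 and 2 and 25 and 2 between the cell types in WT and KO, and 1 and 0 for the difference. DESeq2 size factors gave these same counts. Most single histone genes have under 60 counts per library. Whether a KO effect of the size seen for H4c9 in GC cells could be detected for them at this depth was not tested.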
